A study of Mus musculus with 16 samples.

Results

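Lysosomal enzymes and their partner proteins were followed through the cortex of mice with tau pathology and falling numbers of Trem2 alleles. The set holds 33 genes outside the cathepsin family, chosen by gene symbol with earlier results of these data known, of the 24060 genes listed per library. It comprises 21 soluble hydrolases, 4 activator or cofactor proteins (Psap, Gm2a, Npc2 and Grn), 7 membrane proteins (Lamp1, Lamp2, Npc1, Cd63, Scarb2, Cln3 and Mcoln1) and the transcription factor Tfeb. Of these, 32 had a mean level of at least 1 RPKM over the libraries, a unit that divides the reads of a gene by its length and by the size of the library, and entered the tests, and Manba, the lysosomal beta-mannosidase, did not.

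The tissue was cortex of male and female mice aged 8 to 9 months on a strain labelled C57BL/6; C3. There were 4 genotypes with 4 libraries each, 2 from females and 2 from males. Controls had both Trem2 alleles and no tau transgene (TREM2+/+). The other 3 genotypes carried the P301S tau transgene with both Trem2 alleles (P301S+ TREM2+/+), with a single allele (P301S+ TREM2+/-, the heterozygotes) or with none (P301S+ TREM2-/-, the knockouts). In each tau genotype replicates 1 and 2 were females and replicates 3 and 4 males, and among the controls replicates 2 and 3 were females. The labels name neither the promoter of the transgene nor the deleted part of Trem2. Nor do they say that libraries came from separate animals, so a p-value here measures only the spread between these libraries. No genotype with a Trem2 deletion but without the transgene was among the samples used here, so every effect of Trem2 loss below was measured on the P301S background.

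Lysosomal hydrolases are made in the endoplasmic reticulum, tagged in the Golgi with mannose 6-phosphate and carried by sorting receptors to an acidic organelle, where they take apart glycosaminoglycans, sphingolipids, glycoproteins, glycogen and proteins. Several lipid-degrading enzymes need small activator proteins that present the lipid to them, and membrane proteins protect the organelle, export cholesterol or release calcium. Tfeb and its relatives bind the sequence CACGTG within a longer palindrome in the promoters of many of these genes. In the brain, microglia are rich in lysosomes because they engulf and degrade debris, and Trem2 is a lipid-sensing receptor on their surface.

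The promoters of several members carry that 6-base core, and the 5 windows below show it for a membrane glycoprotein, 2 other membrane proteins and 2 hydrolases. Of the 33 symbols, 31 had promoter windows in the RefSeq table (GRCm38.p6, 250 bases before to 50 bases after the start site), and Asah1 and Npc1 had none. CACGTG, which reads the same on both strands, was found in 9 of the 31 (29.0%): Arsa, Cln3, Gaa, Gla, Glb1, Lamp1, Mcoln1, Naglu and Sgsh. Among all 27025 symbols in that table the share was 8.09%. The longer TCACGTGA, which contains CACGTG, was found in Cln3, Gla and Mcoln1 (1.13% of all symbols). A match is a description of these letters only. Each window below is 100 bases, written 5′ to 3′ on the gene's strand, with CACGTG in capitals.
Lamp1 (chr8:13159061-13159160, plus strand): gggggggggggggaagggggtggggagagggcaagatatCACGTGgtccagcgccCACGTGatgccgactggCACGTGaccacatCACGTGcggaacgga
Mcoln1 (chr8:3500419-3500518, plus strand): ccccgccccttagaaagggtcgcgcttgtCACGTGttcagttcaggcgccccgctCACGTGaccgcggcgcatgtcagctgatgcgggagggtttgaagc
Cln3 (chr7:126583306-126583405, minus strand): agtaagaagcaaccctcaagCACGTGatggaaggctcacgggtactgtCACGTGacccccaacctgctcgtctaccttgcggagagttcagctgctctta
Gla (chrX:134601153-134601252, minus strand): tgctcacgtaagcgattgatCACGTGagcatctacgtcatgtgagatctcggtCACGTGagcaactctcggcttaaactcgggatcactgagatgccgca
Glb1 (chr9:114400978-114401077, plus strand): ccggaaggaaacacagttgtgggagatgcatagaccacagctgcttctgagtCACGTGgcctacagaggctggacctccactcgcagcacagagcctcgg
The Lamp1 window, which ends at the base before the start site, holds the core 4 times, with first bases at -61, -45, -28 and -15 from the start. Mcoln1, Cln3 and Gla hold it 2 times and Glb1 a single time.

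Libraries held 2.55 to 14.47 M reads (M, mega), the shallowest being knockout replicate 2. Trem2, the targeted gene, set the knockouts apart: it lay at 1.44 to 3.75 RPKM in the 4 knockouts and at 4.50 or more in every other library. Heterozygotes, at 4.50 to 25.2 RPKM, overlapped both P301S+ TREM2+/+ mice (14.3 to 34.0) and controls (7.35 to 20.2). The Trem2 difference between knockouts and P301S+ TREM2+/+ mice was -3.17 ± 0.43 (log2, SE, limma adjusted p = 0.040). Control replicate 3 stood apart: the first principal component (52.3% of the variance) placed it at -130.8 and all other libraries at -18.8 or above. Over all 12012 genes tested, 40.6% lay more than 1 log2 unit from the mean of the other controls in that library. Both P301S+ TREM2+/+ females stood apart on the second component (14.6% of the variance), at -45.0 and -41.3. Counts and medians over the members are therefore given with all 16 libraries and without control replicate 3.

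In that control library the lysosomal genes were displaced in both directions. It was the highest of all 16 libraries for 12 of the 33 members and the lowest for 13 others, and over all tested genes it was the highest for 24.9% and the lowest for 41.6%. Psap, the precursor of the saposins that activate sphingolipid breakdown, was at 10.5 RPKM there (150 reads) and at 640 to 886 RPKM in the other controls. Grn, which encodes progranulin, was at 176 RPKM against 12.8 to 37.1, and Npc2, the soluble carrier that hands cholesterol to Npc1, at 189 RPKM against 32.2 to 36.7. Tpp1, a tripeptidyl peptidase, was at 4.32 RPKM against 23.8 to 31.0. Any member whose control mean includes this library carries that displacement.

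**Figure D1:**
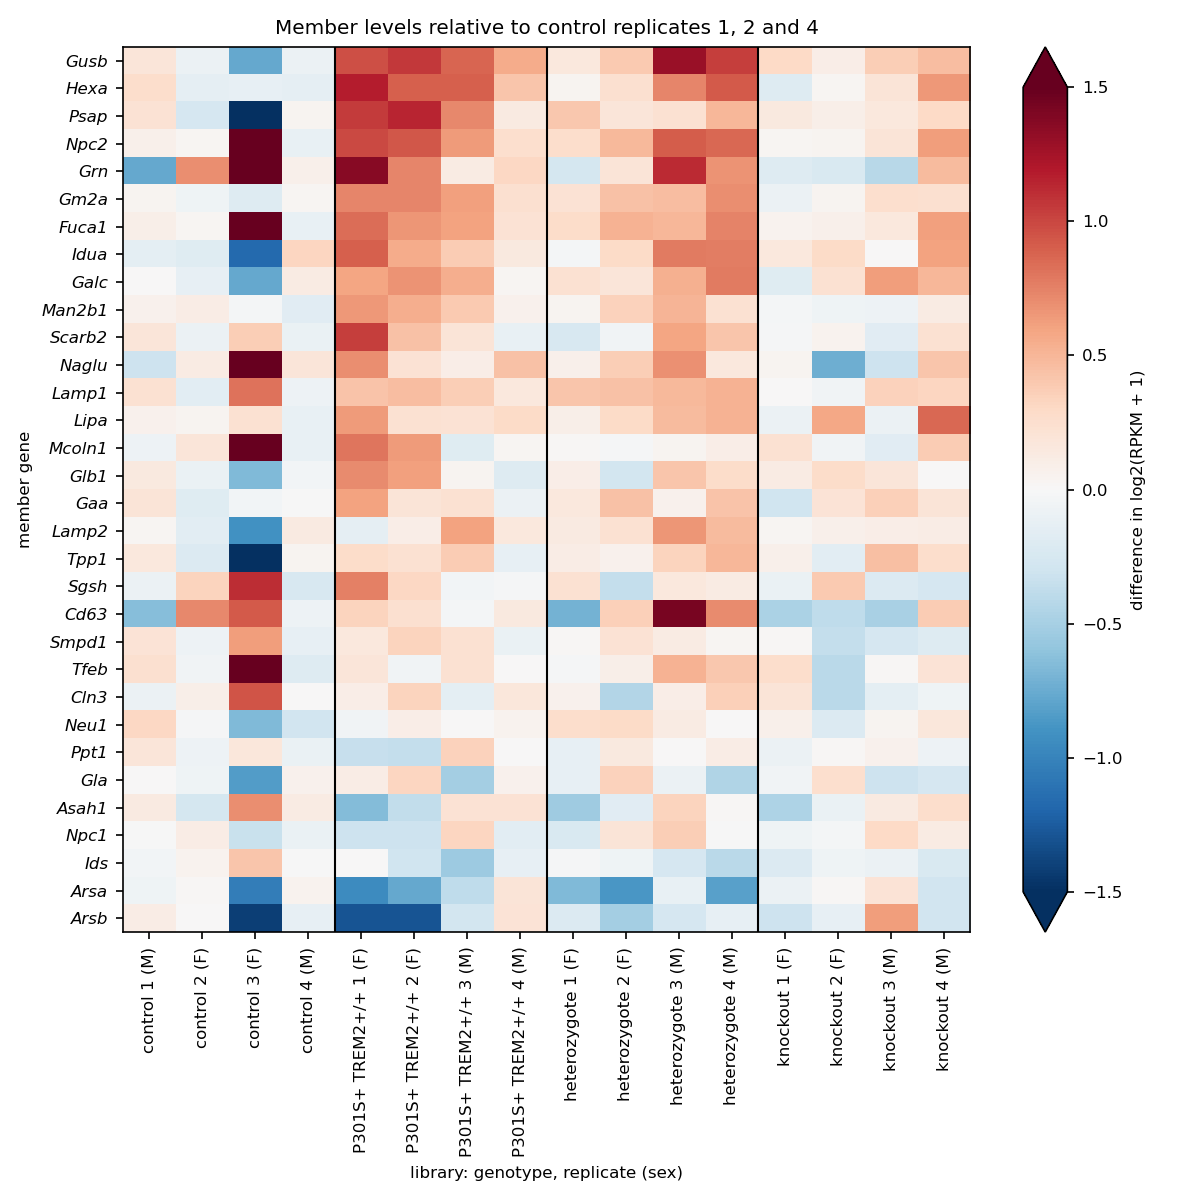
Each cell gives a member's log2(RPKM + 1) in a library minus its mean over control replicates 1, 2 and 4, for the 32 tested members (rows) and 16 libraries (columns, sex in brackets), with the colours ending at -1.5 and 1.5. Control replicate 3 holds both the strongest blue cells, Psap at 10.5 RPKM among them, and strong red cells such as Npc2 at 189 RPKM, while the P301S+ TREM2+/+ females and heterozygote males are red for many of the upper rows.

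The P301S effect compares P301S+ TREM2+/+ mice with controls and asks what the tau transgene does while both Trem2 alleles are present. Gusb, Hexa and Gm2a were higher in every P301S+ TREM2+/+ library than in every control library; 3.55% of all tested genes were separated that way, and 0 members and 1.27% of all genes lay entirely below. None of the 32 members passed the threshold of an adjusted p of 0.05 in limma, nor did any other gene (0% of 12012). At an unadjusted p under 0.05 there were 9 members, 8 of them higher, against 13.8% of all genes. The members' median difference was 0.13 (log2) with 18 of 32 above 0, and that of all genes was 0.06 with 57.1% above 0.

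Gusb encodes beta-glucuronidase, which removes sugar acids from glycosaminoglycans. It read 7.20, 7.78, 6.74 and 5.17 RPKM in P301S+ TREM2+/+ replicates 1 to 4, 3.79, 2.95, 1.48 and 2.95 in controls, 3.69, 4.53, 9.33 and 7.62 in heterozygotes, and 4.17, 3.51, 4.44 and 4.83 in knockouts. All P301S+ TREM2+/+ libraries thus stood above all controls and all knockouts, while the heterozygotes split into low females and high males. The P301S difference was 1.05 ± 0.22 (log2(RPKM + 1), SE; limma adjusted p = 0.262), and 0.90 ± 0.22 without control replicate 3 (adjusted p = 0.107). These values rest on 19 to 198 reads per library.

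Hexa, the alpha subunit of the hexosaminidase that degrades ganglioside GM2, read 65.4, 53.7, 53.6 and 37.9 RPKM in P301S+ TREM2+/+ replicates 1 to 4, 34.2, 25.7, 25.8 and 25.7 in controls, 29.2, 33.6, 47.6 and 54.6 in heterozygotes, and 24.5, 29.0, 32.6 and 45.1 in knockouts. Its lowest P301S+ TREM2+/+ library, the male replicate 4, still lay above the highest control. The difference was 0.88 ± 0.22 with all libraries (log2, SE; limma adjusted p = 0.265) and 0.89 ± 0.22 without control replicate 3 (adjusted p = 0.108). Gm2a encodes the activator that lifts GM2 out of the membrane for that enzyme. It read 15.99, 15.9, 14.6 and 10.99 RPKM in P301S+ TREM2+/+ replicates 1 to 4, 9.51, 8.72, 7.90 and 9.38 in controls, 10.8, 12.8, 13.04 and 15.6 in heterozygotes, and 8.60, 9.48, 11.09 and 11.04 in knockouts. Controls spanned a narrow range below all 4 P301S+ TREM2+/+ and all 4 heterozygote libraries, and overlapped the knockouts. The P301S difference was 0.63 ± 0.15 (log2, SE; limma adjusted p = 0.265) and 0.59 ± 0.15 without control replicate 3 (adjusted p = 0.107).

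Psap read 1583, 1682, 1259 and 837 RPKM in P301S+ TREM2+/+ replicates 1 to 4, 886, 640.2, 10.5 and 784 in controls, 1009.8, 867, 896 and 1082 in heterozygotes, and 843, 814, 853 and 938 in knockouts. Both females and male replicate 3 of the P301S+ TREM2+/+ group lay above every other library, and male replicate 4 lay among the controls. The P301S difference was 2.28 ± 0.97 (log2, SE; limma adjusted p = 0.335) and 0.75 ± 0.20 without control replicate 3 (adjusted p = 0.119). Man2b1, the acid alpha-mannosidase of glycoprotein breakdown, read 6.88, 6.32, 5.601 and 4.27 RPKM in P301S+ TREM2+/+ replicates 1 to 4, 4.24, 4.41, 3.93 and 3.46 in controls, 4.15, 5.39, 6.16 and 4.88 in heterozygotes, and 3.93, 3.80, 3.76 and 4.45 in knockouts. Only male replicate 4 of the P301S+ TREM2+/+ group lay within the control and knockout ranges. Its P301S difference was 0.42 ± 0.15 (log2, SE; limma adjusted p = 0.287) and 0.40 ± 0.16 without control replicate 3 (adjusted p = 0.175).

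**Figure D2:**
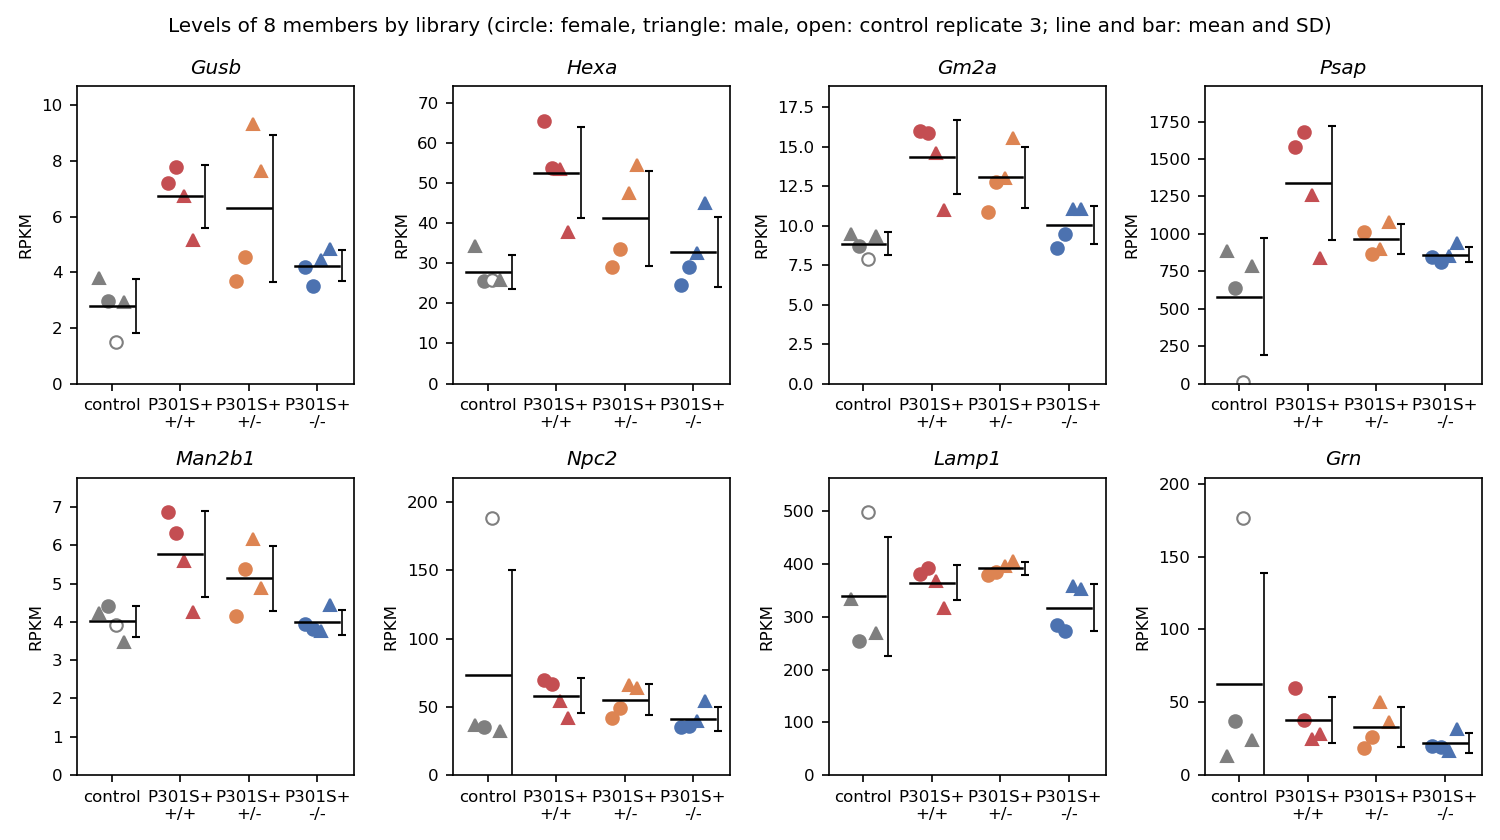
RPKM of 8 members in each library by genotype (circles, females; triangles, males; open circle, control replicate 3), with the mean as a line and the SD as a bar, which is clipped at 0. Gusb, Hexa and Gm2a show all 4 P301S+ TREM2+/+ libraries above all 4 controls, and the open circle sets the control mean and SD of Psap, Npc2, Lamp1 and Grn.

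Without control replicate 3 the P301S difference of the set was above 0 for 25 of 32 members with a median of 0.26, and over all genes the median was 0.01 with 52.2% above 0. No member passed (limma adjusted p from 0.107), and 0.0416% of all genes did; 12 members had an unadjusted p under 0.05, 10 of them higher, against 21.2% of all genes. Fuca1, Lipa and Npc2 joined Gusb, Hexa and Gm2a as genes whose groups did not overlap, against 7.28% of all genes, and 0 members and 5.07% of all genes lay entirely below. Fuca1 removes fucose from glycoproteins and was at 13.1 ± 2.43 RPKM in P301S+ TREM2+/+ mice (SD, n = 4) and 8.33 ± 0.65 in the other controls (SD, n = 3). Lipa, the acid lipase of cholesteryl esters, was at 5.94 ± 1.02 and 4.44 ± 0.36 RPKM in the same groups. Both P301S+ TREM2+/+ females that stood apart are in this comparison too. Without them and control replicate 3, 23 of 32 members were above 0, with a median of 0.06 and a highest difference of 0.56. At an unadjusted p under 0.05 in limma there were then 3 members, against 6.41% of all genes.

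The sign of some members turned on that single control. Grn read 59.6, 38.0, 24.7 and 28.2 RPKM in P301S+ TREM2+/+ replicates 1 to 4, 12.8, 37.1, 176 and 23.8 in controls, 18.6, 25.9, 50.4 and 36.7 in heterozygotes, and 19.6, 19.1, 16.7 and 31.7 in knockouts. Every genotype overlapped every other. Its P301S difference was -0.10 ± 0.57 with all libraries (log2, SE; limma adjusted p = 0.955) and 0.62 ± 0.39 without control replicate 3 (adjusted p = 0.368). Npc2 moved from 0.10 ± 0.43 to 0.71 ± 0.20 (limma adjusted p = 0.935 and 0.131), with 69.9, 66.9, 54.5 and 41.5 RPKM in P301S+ TREM2+/+ replicates 1 to 4 against 36.7, 35.5, 189 and 32.2 in controls. Tfeb, the transcription factor, read 0.92, 0.63, 0.98 and 0.70 RPKM in P301S+ TREM2+/+ replicates 1 to 4, 1.002, 0.64, 4.46 and 0.48 in controls, 0.68, 0.80, 1.43 and 1.24 in heterozygotes, and 1.04, 0.28, 0.71 and 0.94 in knockouts. Apart from control replicate 3 the genotypes overlapped, and its mean reached the filter of 1 RPKM only through that library. The P301S difference of Tfeb was -0.33 ± 0.33 with it and 0.12 ± 0.19 without it (limma adjusted p = 0.646 and 0.740).

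**Figure D3:**
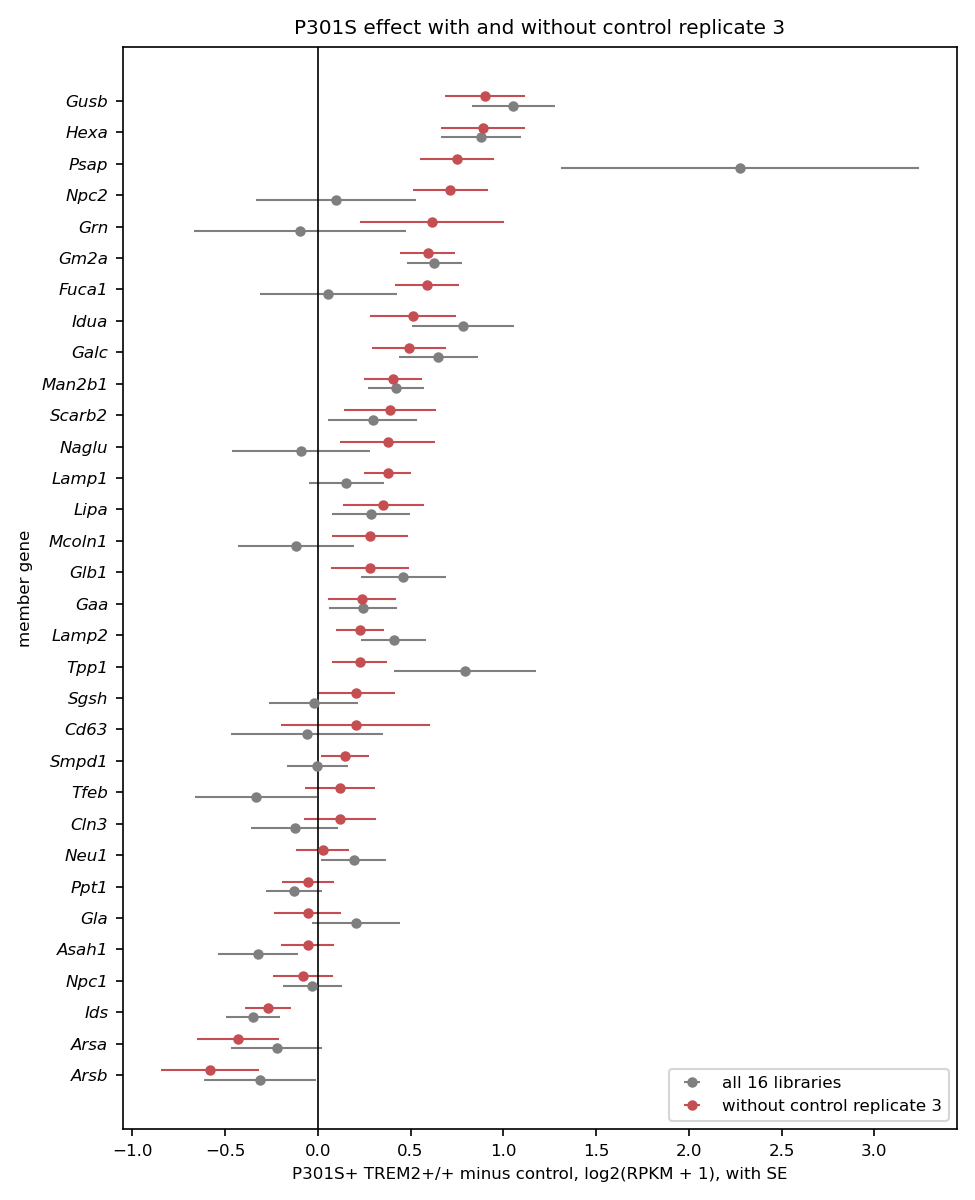
P301S effect of each tested member (P301S+ TREM2+/+ minus control, log2(RPKM + 1), point with SE) with all 16 libraries in grey and without control replicate 3 in red. Gusb moved from 1.05 to 0.90, Hexa and Gm2a by less than their SE, Psap moved from 2.28 to 0.75, and Grn, Npc2 and Tfeb moved to the right.

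By role, the activators and cofactors had the highest median of the P301S difference in both settings, at 0.36 (log2) with 3 of 4 above 0 over all libraries and 0.66 with all 4 above 0 without control replicate 3. The 20 tested hydrolases had medians of 0.20 with 12 above 0 and 0.23 with 14 above 0. For the 7 membrane proteins the sign of the median turned on that library, from -0.03 with 3 above 0 to 0.23 with 6 above 0. It also turned for the 6 genes of glycosaminoglycan breakdown, from -0.06 with 2 above 0 to 0.29 with 4 above 0. The 9 genes of sphingolipid and ganglioside breakdown had 6 above 0 in both settings, with medians of 0.46 and 0.28. Among the glycosaminoglycan genes members differed in sign. Arsb, the sulfatase that acts on dermatan sulfate, read 5.70, 5.72, 12.5 and 17.9 RPKM in P301S+ TREM2+/+ replicates 1 to 4, 16.8, 15.5, 5.17 and 14.1 in controls, 13.3, 10.6, 12.7 and 14.0 in heterozygotes, and 12.3, 14.0, 24.3 and 12.4 in knockouts. Both P301S+ TREM2+/+ females were low and both males were not, and control replicate 3 was the lowest of all 16. The P301S difference of Arsb was -0.31 ± 0.30 (log2, SE; limma adjusted p = 0.639) and -0.58 ± 0.26 without control replicate 3 (adjusted p = 0.226). Arsa, the sulfatase of myelin sulfatide, was likewise lower in the P301S+ TREM2+/+ females, at 2.97 and 3.48 RPKM against 4.85 and 7.71 in the males and 6.30 to 6.90 in the other 3 controls.

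Lamp1 and Lamp2, the abundant glycoproteins that line the lysosomal membrane, overlapped between P301S+ TREM2+/+ mice and controls. Lamp1 read 382, 392, 368 and 317 RPKM in P301S+ TREM2+/+ replicates 1 to 4, 333, 253, 499 and 269 in controls, 379, 385, 397 and 406 in heterozygotes, and 284, 273, 359 and 354 in knockouts. The heterozygotes were tight and lay above all knockouts and all controls but replicate 3. The P301S difference of Lamp1 was 0.15 ± 0.20 (log2, SE; limma adjusted p = 0.737) and 0.38 ± 0.13 without control replicate 3 (adjusted p = 0.153). Lamp2 read 18.6, 22.1, 31.9 and 23.0 RPKM in P301S+ TREM2+/+ replicates 1 to 4, 21.0, 18.3, 10.5 and 22.7 in controls, 22.7, 24.2, 33.1 and 29.1 in heterozygotes, and 21.1, 21.7, 22.1 and 22.2 in knockouts. Its heterozygote libraries lay above all knockouts and all controls, the lowest of them by a small margin.

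The 9 members that carry CACGTG in their promoter windows were set beside the other 21 tested genes with a window. Over all libraries the P301S effect was above 0 for 4 of the 9 with a median of -0.02 (log2), and for 14 of the 21 with a median of 0.29. Without control replicate 3 it was above 0 for 7 of the 9 with a median of 0.24, and for 18 of the 21 with a median of 0.39, so the sign of the first median turned on that library. With complete loss the medians were -0.21 and -0.35 in both settings. Glb1 and Lamp1 had the core and Gusb, Hexa, Gm2a and Psap did not, and no test was made of this split.

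Partial loss compares heterozygotes with P301S+ TREM2+/+ mice and asks what the absence of a single Trem2 allele does. No member passed (limma adjusted p = 0.9996 for the smallest), as for all genes (0% of 12012), and 0 members had an unadjusted p under 0.05 against 2.70% of all genes. The median difference was -0.05 (log2) with 12 of 32 above 0, and over all genes 0.01 with 52.5% above 0. The smallest p-values belonged to Hexa at -0.36 ± 0.22, Arsb at 0.39 ± 0.30 and Npc1, the membrane exporter of cholesterol, at 0.20 ± 0.16 (log2, SE; adjusted p = 0.9996 in limma). Npc1 read 4.53, 4.56, 7.60 and 5.18 RPKM in P301S+ TREM2+/+ replicates 1 to 4, 4.89, 6.85, 7.87 and 5.86 in heterozygotes, 5.58, 5.72, 7.48 and 6.49 in knockouts, and 5.85, 6.42, 4.44 and 5.40 in controls. All 4 genotypes overlapped for Npc1. Because the fit shares a single spread, leaving out control replicate 3 changed only the errors here, and Psap at -0.43 ± 0.19 and Lamp2 at 0.19 ± 0.12 then had adjusted p-values of 0.459 and 0.588 in limma, Psap alone being under an unadjusted 0.05 beside 10.3% of all genes. The heterozygote and P301S+ TREM2+/+ ranges overlapped for every member, where 1.40% of all genes lay entirely above and 1.46% entirely below.

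Complete loss compares knockouts with P301S+ TREM2+/+ mice. Most of the set stood lower in the knockouts: 26 of 32 members had a negative difference with a median of -0.21 (log2), while the median of all genes was -0.02 with 46.9% above 0. Both P301S+ TREM2+/+ females that stood apart are in its reference group. Without them and control replicate 3, 19 of 32 were negative with a median of -0.02 and a lowest difference of -0.33. In that setting 0 members had an unadjusted p under 0.05 in limma, against 5.79% of all genes. With all libraries none of the 32 passed in limma (adjusted p from 0.426; 0.00833% of all genes), 4 had an unadjusted p under 0.05, all lower, and so did 9.91% of all genes in either direction. They were Gm2a at -0.47 ± 0.15, Hexa at -0.68 ± 0.22, Man2b1 at -0.43 ± 0.15 (adjusted p = 0.426 each) and Gusb at -0.55 ± 0.22 (adjusted p = 0.442). Gusb was the only member whose groups did not overlap, with every knockout below every P301S+ TREM2+/+ library, as were 4.76% of all genes. No member lay entirely above, as 2.86% of all genes did. Hexa overlapped because knockout replicate 4, at 45.1 RPKM, exceeded P301S+ TREM2+/+ replicate 4.

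Leaving out control replicate 3 left these differences as they were and shrank the errors. Then 11 members had an unadjusted p under 0.05, 9 of them lower, against 23.7% of all genes, and still none passed in limma (smallest adjusted p = 0.081; 0.108% of all genes). Psap had -0.59 ± 0.19 (adjusted p = 0.092), and Npc2, with 35.4, 35.7, 39.9 and 54.2 RPKM in knockout replicates 1 to 4, had -0.48 ± 0.19 (limma adjusted p = 0.147). Grn was at -0.72 ± 0.36 (adjusted p = 0.237). In the other direction lay Arsb at 0.64 ± 0.24 (limma adjusted p = 0.137), with the low P301S+ TREM2+/+ females as its reference. All 4 activators and cofactors were below 0 with a median of -0.53, and 6 of the 7 membrane proteins were below 0 with a median of -0.22, Lamp1 at -0.21 ± 0.12 and Lamp2 at -0.10 ± 0.12 among them (adjusted p = 0.295 and 0.627).

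Knockouts set directly against heterozygotes gave 26 negative differences of 32 with a median of -0.16 (log2). Over all genes the median was -0.03 with 44.5% above 0. In limma 0 members passed (0% of all genes with all libraries, 0.0167% without control replicate 3). At an unadjusted p under 0.05 there were 2 members with all libraries (3.42% of all genes) and 6 without control replicate 3 (7.78%). Lamp1 and Lamp2 were the 2 members with every knockout below every heterozygote, a pattern of 2.41% of all genes, and no member lay entirely above (2.96%). These knockout comparisons share libraries with the one before, so their counts are not separate evidence. Against controls, heterozygotes had 20 of 32 members above 0 with all libraries (59.9% of all genes) and 26 without control replicate 3 (54.9%). There Galc, the galactosylceramidase of myelin lipid, lay with Lamp2 and Gm2a entirely above the controls (2.73% of all genes) and none entirely below (1.66%), and without that control 7 members did (4.61%) while Arsa and Arsb lay entirely below (5.41%). Knockouts had 16 members above the controls with all libraries (58.1% of all genes) and 23 without control replicate 3 (52.8%), with medians of 0.06 in both. Ids, the iduronate sulfatase, lay entirely below the controls (1.54% of all genes, 2.51% without control replicate 3). None lay entirely above (2.25% and 3.03%). No member passed in limma in either comparison, with or without that library (0% of all genes in each with all libraries, 0.025% and 0.00833% without). At an unadjusted p under 0.05 there were 7 members in heterozygotes with all libraries (9.60% of all genes) and 9 without control replicate 3 (8.72%). In knockouts there were 3 with all libraries (9.72%) and 0 without it (4.88%). None passed by limma-voom on the recovered reads in any of the 6 comparisons.

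For many members the partial-loss difference had opposite signs in females and males. Its female reference is the pair of P301S+ TREM2+/+ females that stood apart. With 2 libraries per sex and genotype, the partial-loss difference had a median over members of -0.30 (log2) in females with 24 of 32 below 0, and of 0.17 in males with 26 of 32 above 0. Over all genes the female minus male difference of partial loss had a median of -0.04. With all libraries no member differed between the sexes (limma interaction, 0 of 32; 0% of all genes; 7 members at an unadjusted p under 0.05 against 6.48% of all genes). Without control replicate 3 these differences were unchanged and only their errors shrank, as no control library enters partial loss. That fit leaves a single female control, which gives no spread for that group. In it Scarb2, Gusb, Glb1 and Npc2 passed. Scarb2, the receptor that carries glucocerebrosidase to the lysosome, was at 20.04 and 13.01 RPKM in P301S+ TREM2+/+ females and 7.69 and 8.94 in heterozygote females, but at 10.7 and 8.53 in P301S+ TREM2+/+ males and 14.6 and 12.7 in heterozygote males. Its ranges did not overlap in either sex and were ordered in opposite ways. Knockout replicates 1 to 4 read 9.19, 9.66, 8.13 and 11.1 RPKM, within the span of the controls at 10.7, 8.71, 12.3 and 8.62 but for replicate 3. The female minus male difference was -1.35 ± 0.31 (log2, SE; limma adjusted p = 0.038). Glb1, the beta-galactosidase of ganglioside GM1, was at 12.9 and 11.97 RPKM against 8.06 and 6.01 in females and at 7.76 and 6.44 against 10.3 and 9.24 in males, again ordered in opposite ways. It read 8.24, 9.29, 8.64 and 7.51 RPKM in knockout replicates 1 to 4 and 8.35, 6.92, 4.38 and 7.24 in controls, which overlapped. The female minus male difference of Glb1 was -1.17 ± 0.24 (limma adjusted p = 0.028). Npc2 read 42.0, 49.2, 66.3 and 63.8 RPKM in heterozygote replicates 1 to 4, both females below and both males above the P301S+ TREM2+/+ libraries of their sex. The differences of Gusb and Npc2 were -1.19 ± 0.26 and -1.02 ± 0.24 (limma adjusted p = 0.034 and 0.044). Glb1, Npc2 and Scarb2 are named here after their values were seen.

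**Figure D4:**
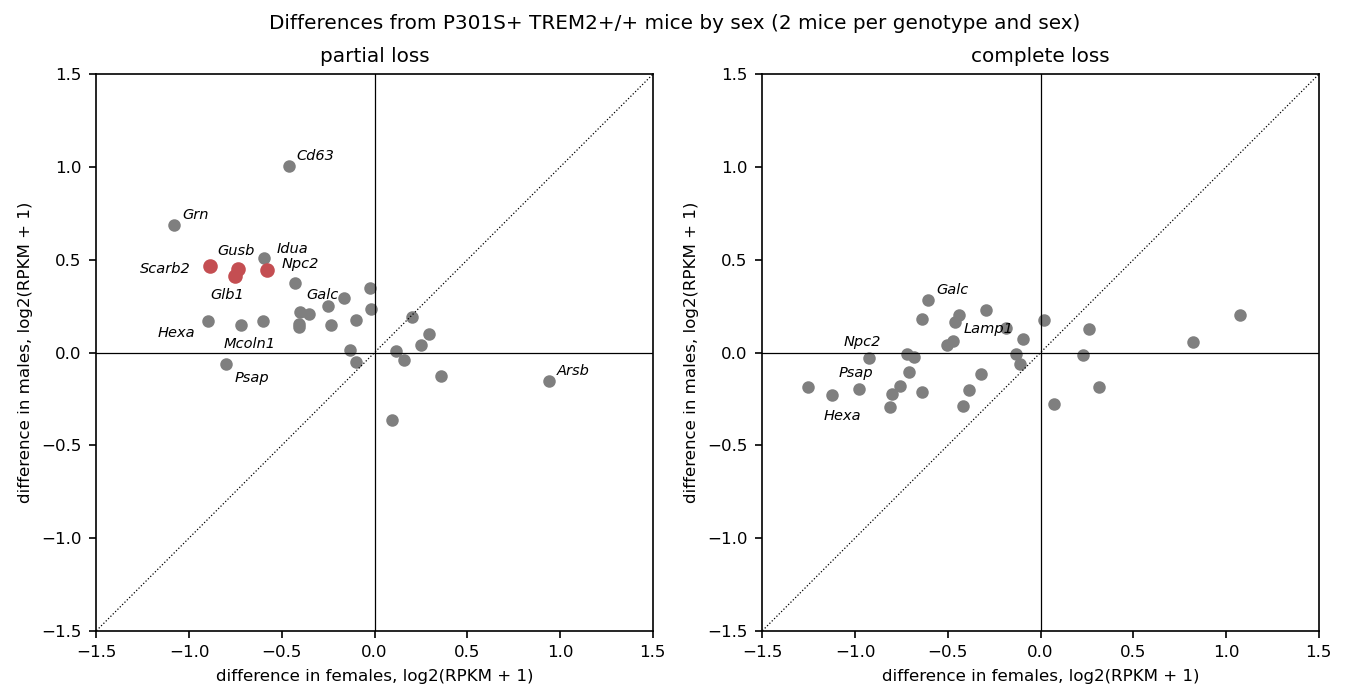
Difference of each tested member from P301S+ TREM2+/+ mice in females (horizontal axis) and males (vertical axis), log2(RPKM + 1), for partial loss (left) and complete loss (right); red points passed the test of the difference between the sexes without control replicate 3, and labelled points had an unadjusted p under 0.02 in it. The left cloud sits mostly in the upper left, with medians of -0.30 in females and 0.17 in males, and the right cloud mostly left of the diagonal, with medians of -0.45 and -0.02.

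For complete loss the medians were -0.45 in females with 25 of 32 below 0 and -0.02 in males with 19 of 32 below 0. No member differed between the sexes there in limma with all libraries (0% of all genes). At an unadjusted p under 0.05 there were 2 members, against 7.24% of all genes. With 2 libraries per sex and genotype, so low a count does not show that the sexes were alike. Npc2, for example, was at -0.92 in females and -0.03 in males (log2). The fit without control replicate 3 leaves a single female control, so its counts are not set beside these. The P301S effect itself did not differ between the sexes for any member in limma (0 of 32 in both settings, beside 0.00833% of all genes with all libraries and 2.41% without control replicate 3, which leaves a single female control). At an unadjusted p under 0.05 there were 6 members with all libraries, against 13.5% of all genes. The reference for every female value of Trem2 loss is the pair of P301S+ TREM2+/+ females that stood apart on the second principal component. With those 2 libraries and control replicate 3 left out, the members' medians were 0.06 for the P301S effect, 0.14 for partial loss (26 of 32 above 0) and -0.02 for complete loss, beside 0.01, 0.01 and 0.00 over all genes.

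The remaining members are given by group means ± SD, with n = 4 for the tau genotypes and n = 3 for controls without replicate 3. Galc was at 6.53 ± 0.64 RPKM in controls, 8.44 ± 2.20 in knockouts, 9.29 ± 2.06 in heterozygotes and 9.47 ± 1.93 in P301S+ TREM2+/+ mice. Idua, the iduronidase of glycosaminoglycan breakdown, was at 3.52 ± 0.93, 4.41 ± 0.97, 5.26 ± 1.64 and 5.39 ± 1.42 RPKM in the same order. In both genes the tau genotypes overlapped one another, and the controls overlapped the P301S+ TREM2+/+ mice at their upper end. Smpd1, the acid sphingomyelinase, was at 39.9 ± 5.08, 34.6 ± 4.04, 42.6 ± 2.80 and 44.6 ± 5.67 RPKM, so that the knockouts had the lowest mean. Ids was at 104.6 ± 3.45, 94.6 ± 5.49, 92.5 ± 11.4 and 89.1 ± 14.5 RPKM. Gaa, the glycogen-degrading alpha-glucosidase, was at 44.0 ± 6.00, 48.1 ± 8.87, 53.3 ± 7.07 and 52.3 ± 10.7 RPKM, differences within the spread between libraries.

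Little separated the genotypes for Tpp1, Ppt1 and Cln3, which are among the genes of neuronal ceroid lipofuscinosis, a lysosomal disease of neurons. Tpp1 was at 27.8 ± 3.65 RPKM in controls without replicate 3, 31.3 ± 5.73 in knockouts, 33.4 ± 4.83 in heterozygotes and 31.9 ± 4.72 in P301S+ TREM2+/+ mice. Ppt1, a thioesterase that removes fatty acids from proteins, had means between 23.8 and 25.4 RPKM in all 4 groups, and Cln3, a membrane protein, means between 2.47 and 3.02 RPKM. The sialidase Neu1 (17.8 to 19.9), the alpha-galactosidase Gla (3.61 to 3.94) and the ceramidase Asah1 (6.64 to 7.24) likewise had group means close together, all in RPKM and without control replicate 3. Mcoln1, the calcium channel of the lysosomal membrane, was at 2.95 and 2.52 RPKM in the P301S+ TREM2+/+ females and at 0.98 to 1.92 in the other 13 libraries apart from control replicate 3. Naglu and Sgsh, which both act on heparan sulfate, had means of 1.06 to 1.86 and 1.59 to 2.20 RPKM in the same groups. Manba lay between 0 and 0.64 RPKM on 0 to 16 reads per library, too few to compare genotypes. Cd63, a tetraspanin of late endosomes, ranged from 37.7 RPKM in heterozygote replicate 1 to 169 RPKM in heterozygote replicate 3, so that its whole range lay within a single genotype.

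Microglia, which carry Trem2, differed in marker level between these libraries too, and in bulk tissue fewer cells of a type cannot be told apart from less RNA per cell. The 17 microglia markers summed to 743, 548, 500 and 418 RPKM in P301S+ TREM2+/+ replicates 1 to 4, 280, 499, 1129 and 678 in heterozygotes, 303, 281, 398 and 643 in knockouts, and 298, 408, 1194 and 311 in controls. None of the 17 was at 0 in any library. Heterozygote males were high and heterozygote female replicate 1 low, as were Gusb and Hexa in the same libraries. None of the 17 markers passed in limma for the P301S effect or for complete loss, 13 and 5 of them being above 0 with medians of 0.27 and -0.30 (log2), and the P301S median was 0.48 with 16 above 0 without control replicate 3. The part of microglial content in the differences of the lysosomal genes was not tested.

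Over the 12 libraries with the transgene, the level of each of the 33 members was set against the mean log2(RPKM + 1) of the microglia, neuron and oligodendrocyte markers, 99 relations in all, with two-sided permutation tests (100000 resamples) and Benjamini-Hochberg adjustment. Relations were computed for the 33 members only. How many of all tested genes follow the markers as closely was not tested. The counts of related members below therefore do not set the lysosomal genes apart from other genes. With the microglia markers 7 members were positively related by Pearson's r: Cd63, Gusb, Npc2, Idua, Grn, Hexa and Scarb2. By Spearman's rho the same 7 passed, and so did Gm2a (rho = 0.81, permutation adjusted p = 0.025), Man2b1 (rho = 0.76, adjusted p = 0.044) and Fuca1 (rho = 0.77, adjusted p = 0.044). For Cd63 Pearson's r was 0.92 (permutation p = 6.0e-05, adjusted p = 0.0059) and Spearman's rho 0.86 (permutation p = 0.00066, adjusted p = 0.012). For Gusb r was 0.86 (permutation p = 0.00033, adjusted p = 0.0081) and rho 0.86 (p = 0.00069, adjusted p = 0.012), and for Hexa r was 0.79 (permutation p = 0.0025, adjusted p = 0.035) and rho 0.85 (p = 0.00098, adjusted p = 0.012). Psap, at r = 0.33 (permutation p = 0.29, adjusted p = 0.49) and rho = 0.56 (permutation p = 0.063, adjusted p = 0.22), did not pass. Taken as deviations from genotype means, 8 members passed with the microglia markers by Pearson's r, the same 7 and Man2b1. These deviations were permuted across genotypes with no allowance for the means subtracted, so their p-values may be too small.

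Without the 2 libraries farthest from the median of the microglia markers the median r over the 33 members was 0.55, against 0.46 with all 12. By Pearson's r 4 members then passed, and only Hexa (r = 0.90, permutation adjusted p = 0.016) and Npc2 (r = 0.91, adjusted p = 0.016) were among the 7 before. Fuca1 (r = 0.93, adjusted p = 0.0059) and Lamp1 (r = 0.85, adjusted p = 0.040) were the others, by the same permutation test. There Cd63 had r = 0.82 (adjusted p = 0.061) and Gusb r = 0.76 (adjusted p = 0.12, permutation test on 10 libraries). With the neuron markers Galc, Idua, Scarb2 and Hexa were negatively related (r = -0.85, -0.77, -0.77 and -0.76; permutation adjusted p from 0.0081 to 0.039), and Galc alone without the 2 farthest libraries (r = -0.89, adjusted p = 0.017). Spearman's rho for these 4 was -0.90, -0.69, -0.68 and -0.72, of which that of Galc passed (permutation adjusted p = 0.0094, the others 0.075 to 0.099). By Spearman's rho Tpp1 (rho = -0.83, permutation adjusted p = 0.016) and Gm2a (rho = -0.76, adjusted p = 0.044) passed too. No member passed with the oligodendrocyte markers. Levels of all genes in a library share its depth and its composition.

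**Figure D5:**
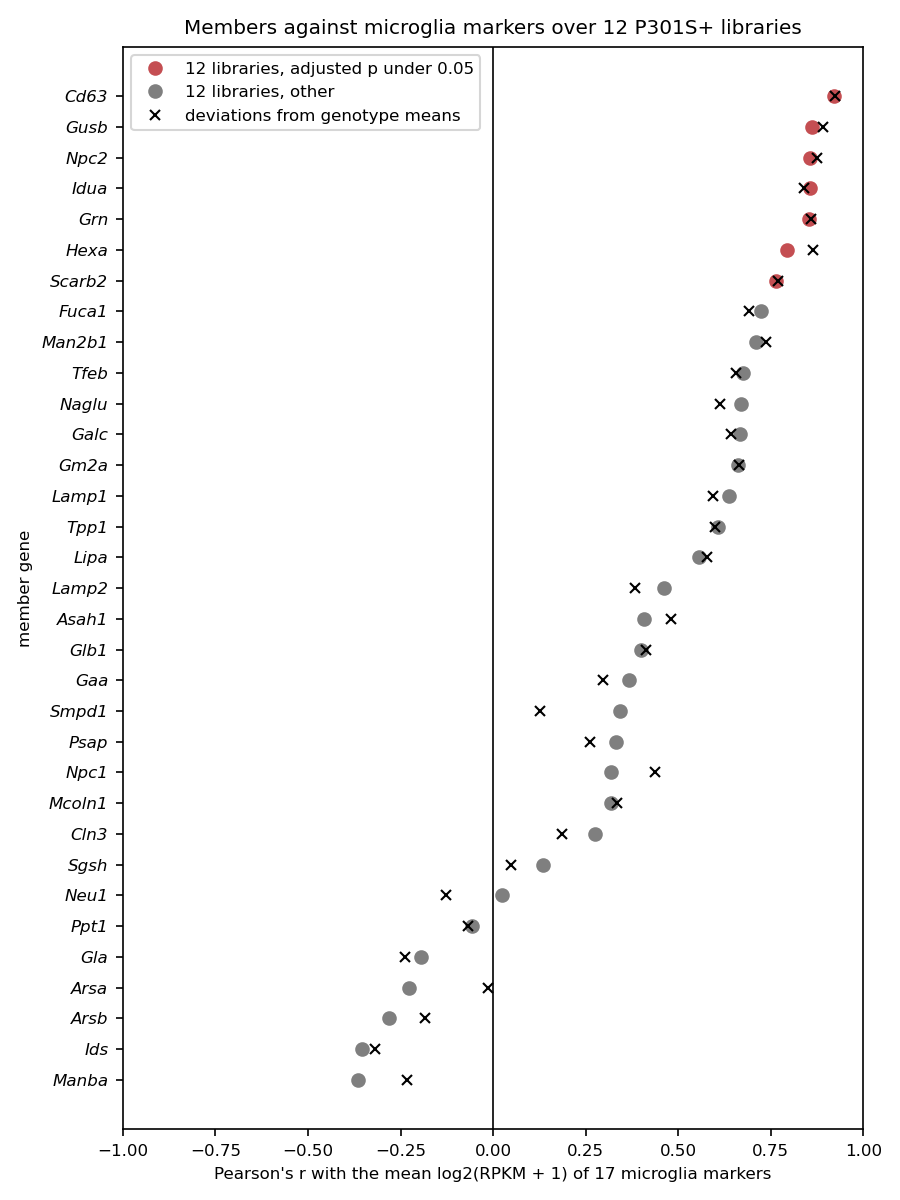
Pearson's r of each member with the mean log2(RPKM + 1) of 17 microglia markers over the 12 P301S+ libraries (points; red, adjusted p of r under 0.05) and after subtracting genotype means (crosses). Cd63, Gusb, Npc2, Idua, Grn, Hexa and Scarb2 lie at the right end with r from 0.76 to 0.92, Psap lies at 0.33, and the crosses stay close to the points.

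Other parts of the lysosomal system were read from lists chosen for their known roles. The P301S effect was above 0 for 10 of 11 tested cathepsins, the proteases of the organelle, with a median of 0.53 (log2), and for 12 of 17 further hydrolases with a median of 0.20. It was above 0 for 9 of 17 subunits of the proton pump that acidifies the organelle (median 0.14), 12 of 18 further membrane proteins (0.17), 7 of 11 genes of mannose 6-phosphate tagging and sorting (0.15) and 10 of 16 Tfeb relatives and nutrient-sensing genes (0.19). None of these genes passed in limma with all libraries or without control replicate 3, where the medians were 0.38 for cathepsins, 0.17 for hydrolases, -0.02 for the pump, 0.00 for membrane proteins, 0.06 for sorting genes and 0.16 for the Tfeb relatives. With complete loss the medians were -0.30 for cathepsins with 3 of 11 above 0, -0.13 for further hydrolases with 5 of 17, -0.00 for the pump with 8 of 17, 0.06 for membrane proteins with 10 of 18, 0.07 for sorting genes with 8 of 11 and -0.13 for the Tfeb relatives with 6 of 16. Partial loss gave list medians between -0.06 and 0.06.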

How the data were processed

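Libraries were made from total cortical RNA with the Lexogen QuantSeq 3' kit, which reads near the poly(A) end, per the labels' protocols. The submitters' processing notes name STAR, HTSeq, edgeR, limma and mm10, without versions or roles. The deposited values were taken as RPKM from the values themselves, since the headers name only the library; no source says how the authors' RPKM were scaled. Tags come from 3' ends, so a gene's RPKM is read against the same gene in other libraries, and sums over markers weight each gene by its RPKM. For each of the 18907 genes above 0 (100%) the steps of the values gave whole reads (largest distance from a whole read 7.14e-05). They bound counting error only, as reads are not independent molecules. A line naming no gene and 2 symbols listed more than once were left out. Strand use is not given, so for the 9 members whose exons overlap another protein-coding gene (Cln3, Glb1, Grn, Hexa, Idua, Lamp1, Npc1, Ppt1 and Sgsh) reads of the partner cannot be told apart.

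Tests used the 12012 genes whose mean RPKM reached 1 and were made with limma 3.58.1 (R 4.3.3, trend) on log2(RPKM + 1), which understates changes of low genes, with genotype and sex as terms over all 16 libraries (11 residual degrees of freedom). Sex differences were interactions with 8. Adjusted p-values are Benjamini-Hochberg over all these genes (threshold 0.05). The scripts were tested on simulated data. Replicates were numbered in accession order and no batch is labelled. The members and lists were chosen with earlier results of these data known. Values in every library are given for members past the threshold, the 3 smallest p-values of the P301S effect, partial and complete loss with and without control replicate 3, and Psap, Grn, Lamp1 and Tfeb; other members are given by group. Astrocyte, endothelial, choroid plexus and blood markers were read beside those of microglia, neurons and oligodendrocytes. Other pseudocounts, filters, scalings, weights and leaving out each library were tried.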

Additional observations from a re-analysis of the deposited data

Results flagged for a closer look

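In 13 of 132 groups of 4 libraries (33 members in 4 genotypes) the highest or lowest library lay far from the other 3, where chance alone marks about 1 group in 20. Control replicate 3 was that library 8 times. It was the highest control for Grn (176 RPKM), Npc2 (189 RPKM), Fuca1 (39.0 RPKM), Naglu (6.71 RPKM), Mcoln1 (6.68 RPKM), Cln3 (6.11 RPKM) and Tfeb (4.46 RPKM), and the lowest for Arsa (2.74 RPKM).

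The other 5 of the 132 groups involved different libraries, a share below the 1 in 20 that chance alone marks. Knockout replicate 4 was the highest knockout for Fuca1 (13.2 RPKM) and Cd63 (82.0 RPKM), and it also had the highest sum of microglia markers of that genotype (643 RPKM). Knockout replicate 3 was the highest for Arsb (24.3 RPKM), control replicate 1 for Hexa (34.2 RPKM against 25.7 to 25.8 in the other controls) and P301S+ TREM2+/+ replicate 1 for Lipa (7.46 RPKM).

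Partial loss differed between females and males by -1.35 for Scarb2, -1.19 for Gusb, -1.17 for Glb1 and -1.02 for Npc2 (female minus male, log2). No member passed limma's interaction test with all libraries. Leaving out control replicate 3 did not change these values but shrank their errors (Scarb2 from 0.36 to 0.31, Gusb from 0.34 to 0.26). These genes passed in that fit, which leaves a single female control and so no spread for that group. In each sex both heterozygote libraries of these 4 genes lay on one side of both P301S+ TREM2+/+ libraries, below in females and above in males. The female reference is the pair of P301S+ TREM2+/+ libraries that stood apart on the second principal component.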

How the results depend on the processing

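With all 16 libraries no member passed in any of the 6 comparisons, and none did with a pseudocount of 0.1, no filter, a mean of at least 5 RPKM, median centring, quantile normalization, no sex term, only the compared genotypes, limma-voom, or any library left out (range 0 to 0). Array weights lay between 0.60 and 1.88 except in control replicate 3 (0.0448) and heterozygote replicate 2 (4.57). For the P301S effect they called 3 members, Gusb 0.99, Hexa 0.97 and Gm2a 0.65 (log2, limma adjusted p from 0.044 to 0.045), beside 1.64% of all genes. For complete loss they called 2, Hexa -0.78 and Gm2a -0.53 (limma adjusted p = 0.041), beside 5.74% of all genes. They called 2 for heterozygotes against controls, beside 1.09% of all genes. The difference of partial loss between the sexes was called for 3 members, beside 273 of 12012 genes. Leaving out each library in turn gave 0 to 15 members differing by sex for the P301S effect, 0 to 4 for partial loss and 0 to 0 for complete loss. The highest P301S count came from leaving out control replicate 2, which leaves control replicate 3 as the single female control. A single library gives no spread for that group, and a large part of all tested genes was called there too. That count is therefore no result about the lysosomal genes. The partial-loss fits without control replicate 2 or 3 carry the same limit, each with a single female control. For partial loss 4 came from leaving out either of these controls. Beside them stood 379 of 12012 genes without control replicate 2 and 383 without control replicate 3.

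For the P301S effect the log2 difference of Grn, -0.10 with all libraries, became 0.62 without control replicate 3, 0.50 with array weights, 0.01 (0.0062) without P301S+ TREM2+/+ replicate 3 and 0.15 without control replicate 3 and both P301S+ TREM2+/+ females. That of Tfeb, -0.33, became 0.12, 0.10 with array weights and 0.0338 in the last setting. That of Npc2, 0.10, became -0.05, -0.15 and -0.12 without control replicates 1, 2 and 4. Single libraries moved Psap between 0.75 and 2.86, Grn between -0.56 and 0.62, Npc2 between -0.15 and 0.71, Tfeb between -0.55 and 0.12, Lamp1 between 0.02 and 0.38, Arsb between -0.58 and -0.07, Gusb between 0.90 and 1.23, Hexa between 0.71 and 1.08 and Gm2a between 0.55 and 0.77. Without control replicate 3 and both P301S+ TREM2+/+ females, partial loss became 0.0785 for Hexa and -0.14 for Arsb. In that setting no member, Gusb, Hexa and Gm2a included, had a P301S difference above 0.56. The cause was not tested. Relations with markers by Pearson's r went from 7 to 4 for microglia and from 4 to 1 for neurons without the 2 farthest libraries. No paired analysis was possible because the labels carry no replicate number shared between groups. Depth limits the low members: Tfeb, Naglu and Manba rest on few reads in the shallow libraries, and with 4 libraries per group smaller differences would not be called.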

Other observations

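Markers of the other cell types a cortical dissection could hold were read in the same libraries. Summed oligodendrocyte markers lay between 569 and 730 RPKM in controls, 717 and 992 in P301S+ TREM2+/+ mice, 843 and 1236 in knockouts and 813 and 992 in heterozygotes. Mag, a myelin adhesion protein, was the only gene of these marker lists or of the lysosomal lists to pass in limma without control replicate 3, higher in P301S+ TREM2+/+ mice by 0.86 ± 0.13 (log2, SE; adjusted p = 0.034) and in heterozygotes by 0.92 ± 0.13 (adjusted p = 0.021), both against controls. Summed neuron markers lay between 5325 and 7350 RPKM in P301S+ TREM2+/+ mice and between 6731 and 11883 in controls. Choroid plexus markers varied most, from 68.2 to 1776 RPKM, with medians of 349 in controls, 949 in P301S+ TREM2+/+ mice, 173 in knockouts and 266 in heterozygotes. Astrocyte markers (1336 to 2057 RPKM) and endothelial and mural markers (42.1 to 61.8 RPKM) varied less, and at least 4 of the 5 blood markers were listed at 0 in every library.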
